A study of Homo sapiens with 21 samples.

Results

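RNA of K562 cells was compared between 3 libraries labelled MYB overexpression and 3 libraries labelled empty vector, so the comparison rests on 6 of the 21 libraries of the series. K562, a long-established human cell line, came from a patient with chronic myeloid leukaemia, and all groups were grown in RPMI medium with 10% fetal bovine serum. In the MYB overexpression group the full-length MYB isoform was meant to be expressed from an introduced vector, and the control cells carried the empty vector. Another 3 libraries labelled NMYB overexpression, made alongside, are used for a further comparison, and some of their values against empty vector are given. The design text speaks of an N-terminally truncated MYB isoform, and no source used here says what the label NMYB stands for. The promoter of the vector, the time after its introduction, and whether the cells were a pool or a clone are not given in those sources either. Of 61541 genes counted, 15823 had enough reads to be tested in the 9 libraries, and 25892 were at 0 in all of them. The comparison addresses which genes change when MYB is overexpressed.

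MYB encodes c-Myb, a transcription factor that binds short DNA motifs through repeats near its N terminus, recruits the coactivators CREBBP and EP300 through a central activation domain, and is restrained by a negative regulatory region near its C terminus. In the bone marrow it keeps blood cell progenitors dividing, and its level normally falls as red cells and platelet precursors mature. K562 cells already express MYB before any vector, along with fetal globin and early erythroid and megakaryocytic genes.

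Total counts per library were 19425246 to 24462819 with MYB overexpression and 17672678 to 20276276 with empty vector, and the 10 highest genes held 7.06% to 7.26% and 7.75% to 8.24% of them. Levels are CPM, the counts of a gene per 1000000 counts of the library, scaled by edgeR's TMM method, and a gene was called when the Benjamini-Hochberg adjusted p of edgeR's quasi-likelihood test, two-sided and over all tested genes, was below 0.05. In each of the 6 replicate pairs of these groups the counts differed by more than sampling noise (chi-square divided by its degrees of freedom, 1.92 to 4.87). The summed level of a list is on this scale and includes members with too few reads to test. Nothing in the labels says that the replicates came from different cultures, and p-values thus measure how far these libraries differ, which may be technical. Along the first principal component of the 9 libraries, which held 39.3% of the variance, the MYB libraries stood at 11.04 to 14.3 and the empty-vector libraries at −33.2 to −24.7. The NMYB libraries stood at 12.5 to 18.01 and overlapped the MYB libraries, so this component does not set full-length MYB apart from NMYB. Erythroid markers known from the labelled line, K562, were present, with all 15 tested and summed levels of 1199 to 1248 CPM with MYB overexpression and 1109.8 to 1358 CPM with empty vector. The platelet genes PF4 and PPBP, the neutrophil genes ELANE and S100A8 and the B cell gene MS4A1 had 0 counts in all 6 libraries.

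The MYB transcript itself was measured first, since it is the targeted gene. MYB (chromosome 6, 135181315 to 135219173, plus strand, in the GENCODE 29 annotation of GRCh38) stood at 231, 228 and 222 CPM with MYB overexpression, against 216, 210.3 and 219 CPM with empty vector. All MYB overexpression values lay above all empty-vector values, by a log2 fold change of 0.077 (SE 0.0437) that did not pass the test (adjusted p = 0.2301, edgeR). The 95% interval of the fold, from the SE and the degrees of freedom of that test and not adjusted over genes, ran from 0.9897 to 1.12. A rise of the MYB transcript was thus not detectable at this spread in the libraries labelled MYB overexpression, and every direction given here rests on the label. Whether reads of the introduced sequence were counted in this gene was not tested.

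The relatives of MYB and its neighbours on chromosome 6 came next. MYBL2, a family member of dividing cells, had 241, 250.3 and 224 CPM with MYB overexpression, against 256, 256 and 252 CPM with empty vector, with a log2 fold change of −0.093 (adjusted p = 0.235). MYBL1, a relative best known from germ cells, had 1.02, 1.51 and 0.963 CPM with MYB overexpression, against 1.001, 0.916 and 1.3 CPM with empty vector, and its log2 fold change of 0.12 (adjusted p = 0.795) turned to −0.09 without MYB replicate 2. HBS1L, the neighbour upstream, which encodes a ribosome rescue factor, stood at −0.044 (adjusted p = 0.542). AHI1, the neighbour downstream and a gene of the ciliary transition zone, was the member of this group that passed the test. It had 50.8, 55.9 and 56.8 CPM with MYB overexpression, against 72.3, 68.2 and 70.6 CPM with empty vector, without overlap, and fell by 0.37 on the log2 scale (SE 0.0564, adjusted p = 9.03e-05). The antisense gene MYB-AS1 was below 1 CPM in all 6 libraries, and without a stated strand setting its reads cannot be told apart from those of MYB.

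Across the transcriptome, 3529 of the 15823 tested genes (22.3%) passed the test, 1522 higher (9.62%) and 2007 lower (12.7%) with MYB overexpression. Most of these changes were small. The median absolute log2 fold change of the called genes was 0.34, and 339 genes (2.14%) changed by 2-fold or more, 129 (0.815%) up and 210 (1.33%) down. Changes of 4-fold or more were met by 11 genes that rose and 23 that fell. Called genes were thus 43.1% higher ones, a split that turned to 56.8% when libraries were scaled by their total count alone, which shifted the median log2 fold change of all genes to 0.042. Values of the 2 groups did not overlap in 6405 genes (40.5%), a background for each such statement below. Leaving out 1 library at a time kept 1816 of the 3529 calls in all 6 fits. Wherever a gene list below has 0 members called in a direction in this comparison, DESeq2 and limma-voom also called 0, and edgeR had 0 to 2 members there at an unadjusted p under 0.05. Protein-coding genes made up 12052 of the tested genes, with 1331 higher and 1758 lower, while of 814 lincRNA genes 41 rose and 76 fell.

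**Figure D1:**
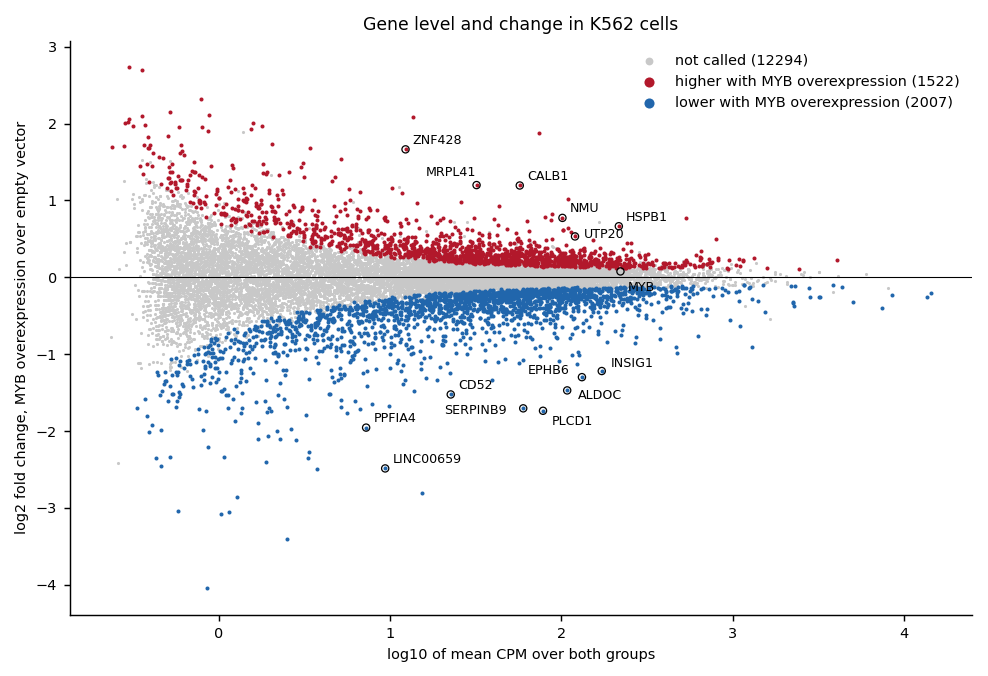
Each point is a tested gene, with the log10 of its mean CPM over both groups on the horizontal axis and its log2 fold change, MYB overexpression over empty vector, on the vertical axis. Red points (1522) passed the test as higher and blue points (2007) as lower, grey points did not pass, and rings mark 15 named genes, among them MYB, which lies close to 0.

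Calls of lower genes were commoner among genes rich in G and C and among long ones. The share of genes called lower was 7.38% among the lowest of 5 equal classes of transcript GC content and 16.8% in the highest class, while the share called higher was 10.1% and 9.97%. By transcript length the share called lower was 7.05% in the shortest of 5 classes and 15.1% in the longest. Empty-vector replicate 1 also took part in the calls unevenly. It had the lowest of the 3 empty-vector values in 35.8% of all genes tested, in 46.8% of those called higher and in 54.3% of those at least 2-fold higher, against 31.4% of those called lower. Fits without that library are named where they end a call or move a count by over 1.5 times. With the GC trend removed, 1 of 179 named genes lost its call. That gene is not singled out below, and list counts of that fit are not given.

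The 14 largest rises among genes of at least 10 CPM, taken from those with a symbol whose call held without each library in turn and whose groups did not overlap, included a calcium buffer, a neuropeptide, genes normally silent outside the testis, and parts of the mitochondrial ribosome and of RNA processing. CALB1 encodes calbindin, which binds free calcium in neurons and kidney. It had 78.4, 77.8 and 82.4 CPM with MYB overexpression, against 37.7, 32.5 and 33.8 CPM with empty vector, a 2.29-fold difference with tight replicates (log2 fold change 1.19, SE 0.0654, adjusted p = 1.98e-10 by edgeR). ZNF428, a zinc finger gene, had 15.3, 20.1 and 20.6 CPM with MYB overexpression, against 3.303, 7.16 and 7.35 CPM with empty vector, and its log2 fold change of 1.66 (SE 0.256, adjusted p = 0.00209) was the largest of these 14. CCDC85B, with 15.7, 27.2 and 23.1 CPM with MYB overexpression, against 2.502, 6.3 and 6.95 CPM with empty vector, rose more and was named after its values were seen, as its call was lost without MYB replicate 3. FTH1, described with the iron genes, also rose more and lost its call without most single libraries. The groups did not overlap for it, although the empty-vector values differed among themselves, with replicate 1 below the other two. MRPL41, a protein of the large mitochondrial ribosomal subunit, had 34.9, 49.1 and 49.4 CPM with MYB overexpression, against 15.1, 21.5 and 21.6 CPM with empty vector. Its log2 fold change was 1.20 (SE 0.243, adjusted p = 0.0131) and 0.91 with the GC trend removed. NGRN, which takes part in building the mitochondrial ribosome, had 30.6, 37.2 and 35.6 CPM with MYB overexpression, against 13.6, 21.4 and 17.5 CPM with empty vector, with no overlap and a log2 fold change of 0.98.

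NMU encodes the neuropeptide neuromedin U and has been described as a MYB target in leukaemia cells. It had 105, 139 and 139.7 CPM with MYB overexpression, against 70.6, 74.3 and 79.4 CPM with empty vector, so that MYB replicate 1 was the lowest of its group and still above every empty-vector library (log2 fold change 0.77, SE 0.125, adjusted p = 0.00214). TRIR, an RNase that interacts with telomerase RNA, had 90.8, 105 and 108 CPM with MYB overexpression, against 56.6, 62.2 and 58.03 CPM with empty vector. RPP25, a protein of RNase P and RNase MRP, rose with a log2 fold change of 0.77, and the zinc finger gene ZNF787 with 0.76, or 0.54 with the GC trend removed. The cancer-testis genes VCX3A, SSX3 and CTAG2 rose by log2 fold changes of 1.09, 0.75 and 0.78. These belong to X-chromosome families with near-identical copies, so reads may be split or lost among copies and their values are uncertain. SSX3 had 25.99, 24.5 and 23.01 CPM with MYB overexpression, against 15.7, 14.3 and 13.7 CPM with empty vector, the most even of them. The remaining genes of the largest positive changes were PRSS2, an anionic trypsinogen with near-identical relatives (0.88), REX1BD (0.79) and ITIH5, a heavy chain of the inter-alpha-trypsin inhibitor family (0.78), all on the log2 scale. In 9 of these 14 genes empty-vector replicate 1 was the lowest of its group. All 14 also kept sign and call with the GC trend removed. Their median GC content was 56.8%, against 48.3% over all genes tested.

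Among genes averaging at least 100 CPM over both groups and chosen on the same conditions, the largest rises after NMU were in a small heat shock protein and in RNA-handling factors. SDF2L1 and RPL13, which lost their calls without single libraries, rose more than HSPB1 and are described with their groups. HSPB1, the chaperone HSP27, had 255, 282 and 259 CPM with MYB overexpression, against 145, 186 and 171 CPM with empty vector (log2 fold change 0.66, SE 0.116, adjusted p = 0.00389). NOL7, a nucleolar protein, had 113, 124 and 133 CPM with MYB overexpression, against 76.9, 85.6 and 80.1 CPM with empty vector. LUC7L2, a splicing factor of the U1 particle, had 134, 128 and 146 CPM with MYB overexpression, against 81.8, 97.9 and 91.9 CPM with empty vector. Neither gene's groups overlapped, which was a condition of the choice. UTP20, a factor of small-subunit ribosomal RNA processing, was the most even of the set. It had 142, 141 and 143 CPM with MYB overexpression, against 95.1, 97.9 and 101 CPM with empty vector (log2 fold change 0.53, SE 0.0496, adjusted p = 2.68e-07). RBM42, an RNA-binding protein, had 122, 129 and 121 CPM with MYB overexpression, against 60.2, 95.3 and 87.2 CPM with empty vector, with empty-vector replicate 1 well below the other two. Its call (log2 fold change 0.62, adjusted p = 0.0153) was lost when the fit used the 6 libraries alone (adjusted p = 0.086) and when no low-count filter was applied (adjusted p = 0.0507).

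**Figure D2:**
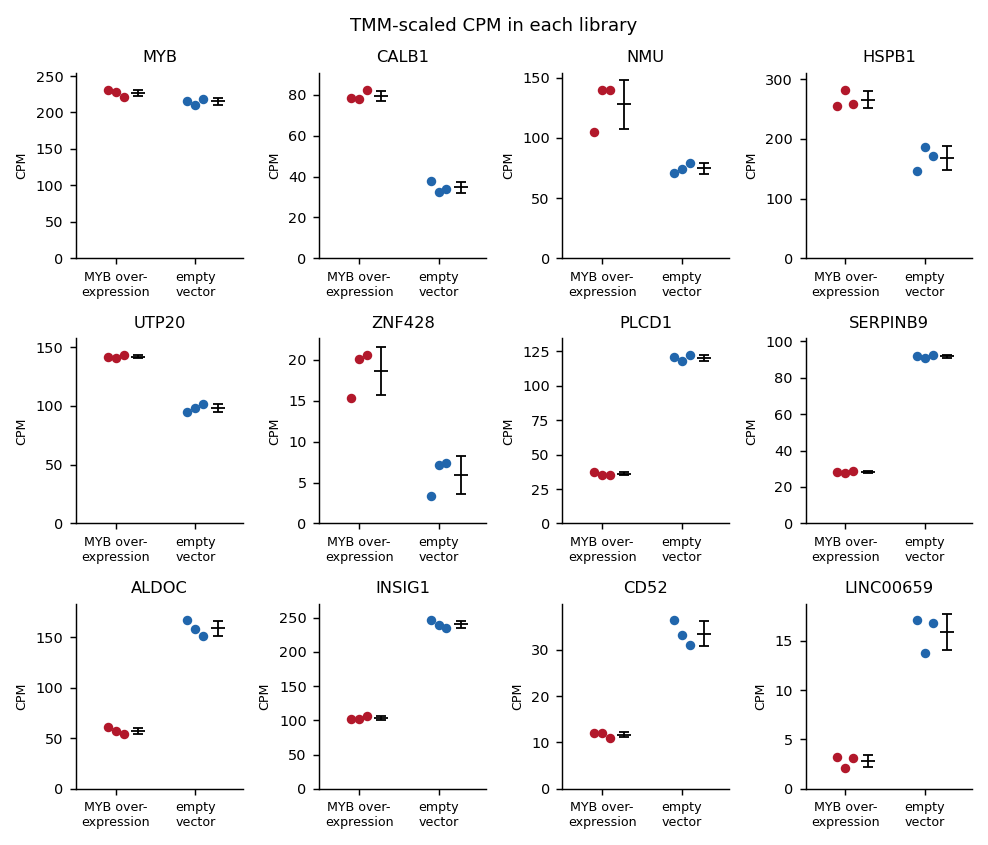
TMM-scaled CPM of 12 genes in each library, with MYB overexpression (red) left of empty vector (blue). Points are libraries in the order of replicates 1 to 3, and the bar beside each group is its mean with the SD (n = 3). MYB differs little between the groups. The other genes were chosen among those whose groups do not overlap, so their separation follows from that choice.

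The 14 largest falls at 10 CPM or more, chosen on the same conditions, were a mixed set of membrane proteins, signalling enzymes and blood cell surface genes. PLCD1, phospholipase C delta 1, which cleaves a membrane phosphoinositide, had 37.2, 35.4 and 35.5 CPM with MYB overexpression, against 120.5, 118 and 122 CPM with empty vector. It was 3.33-fold lower with narrow replicate spread (log2 fold change −1.74, SE 0.0595, adjusted p = 2.75e-13 by edgeR). SERPINB9, the intracellular inhibitor of granzyme B, was as even, with 28.1, 27.5 and 28.6 CPM with MYB overexpression, against 91.9, 90.5 and 92.2 CPM with empty vector (log2 fold change −1.70, SE 0.0556, adjusted p = 2.34e-13). LINC00659, a noncoding gene annotated as antisense, had the largest negative log2 fold change of the set, −2.49 (SE 0.134). It had 3.25, 2.12 and 3.09 CPM with MYB overexpression, against 17.1, 13.7 and 16.8 CPM with empty vector, and its reads cannot be told apart from those of an overlapping gene on the other strand. PPFIA4, liprin alpha 4, had 3.17, 3.21 and 2.48 CPM with MYB overexpression, against 12.1, 10.5 and 11.9 CPM with empty vector.

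CD52, a small glycoprotein of the leukocyte surface, had 11.9, 12.02 and 11 CPM with MYB overexpression, against 36.3, 33.2 and 30.96 CPM with empty vector, a 2.88-fold difference. It fell without overlap, with a log2 fold change of −1.52. The calcium channel gene TRPV6 had 3.95, 4.24 and 3.14 CPM with MYB overexpression, against 12.2, 12.3 and 11.2 CPM with empty vector. The neutral amino acid transporter gene SLC6A19 had 2.85, 4.06 and 2.48 CPM with MYB overexpression, against 10.3, 11.2 and 9.27 CPM with empty vector. P2RX1, an ATP-gated channel of platelets, fell by 1.33 on the log2 scale, FCGR2C, an Fc receptor gene with near-identical neighbours, by 1.42, and ACRBP, known from the sperm acrosome and platelets, by 1.38. The long noncoding gene OLMALINC fell by 1.48 and NT5DC4 by 1.67. These genes also kept sign and call with the GC trend removed. A gene without a symbol, ENSG00000289609, changed more than any of them, with 4.03, 3.25 and 4.21 CPM with MYB overexpression, against 27.4, 25.5 and 27.8 CPM with empty vector, and was named after its values were seen.

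Among genes averaging at least 100 CPM, the largest falls were those of ALDOC, EPHB6, INSIG1, EGFL7, MCAM and PTK2B. EPHB6, an ephrin receptor without kinase activity, had 77, 81.2 and 70.1 CPM with MYB overexpression, against 181, 191 and 189.8 CPM with empty vector (log2 fold change −1.30, SE 0.06101, adjusted p = 2.11e-11). MCAM, the adhesion molecule CD146, had 84.8, 86.1 and 82.3 CPM with MYB overexpression, against 161, 175 and 175 CPM with empty vector. PTK2B, the tyrosine kinase PYK2, had 79.7, 78.04 and 70.1 CPM with MYB overexpression, against 158, 151 and 151 CPM with empty vector. For each of these genes the lowest empty-vector library was well above the highest MYB library. EGFL7, a secreted factor best known from endothelium, had 76.9, 79.3 and 75.4 CPM with MYB overexpression, against 138, 192 and 178 CPM with empty vector, with a wider spread in the empty-vector group (log2 fold change −1.13, SE 0.112). ALDOC and INSIG1 are described with their pathways.

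Genes of cholesterol synthesis fell together. Of 21 enzymes of the pathway, all tested, 15 fell, 1 rose and 5 did not pass, and their median log2 fold change was −0.43, against 0.0055 over all genes tested, of which 12.7% were called lower. The list's summed level was 1498 to 1538 CPM with MYB overexpression and 2109.5 to 2139 CPM with empty vector. HMGCS1, a synthase early in the pathway, had 99.9, 98.1 and 108 CPM with MYB overexpression, against 174, 160.0 and 161 CPM with empty vector (log2 fold change −0.70, SE 0.0532, adjusted p = 2.04e-08). FDFT1, squalene synthase, which commits the pathway to sterols, had 177, 170.0 and 170.0 CPM with MYB overexpression, against 282, 270.3 and 278 CPM with empty vector. MSMO1, which removes methyl groups from the sterol nucleus, changed most of the 21, with 21.8, 22.96 and 24.02 CPM with MYB overexpression, against 51.04, 48.2 and 46.95 CPM with empty vector (log2 fold change −1.09, SE 0.0883, adjusted p = 6.24e-08). DHCR7, which makes cholesterol in the last step of one branch, had 129, 124 and 121 CPM with MYB overexpression, against 195, 212 and 199 CPM with empty vector. Groups did not overlap for any of these genes. The member that rose was PMVK, phosphomevalonate kinase, with 15.4, 13.96 and 14.2 CPM with MYB overexpression, against 10.01, 11.5 and 10.1 CPM with empty vector (log2 fold change 0.47, adjusted p = 0.00113). CYP51A1, EBP, GGPS1, SC5D and TM7SF2 did not pass.

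The regulators and carriers of cholesterol moved in the same direction for the most part. SREBP transcription factors switch these genes on when sterol is scarce, and INSIG proteins hold the SREBP complex in the endoplasmic reticulum when it is plentiful, INSIG1 being itself an SREBP target. Of 16 genes of sterol sensing, uptake and transfer, all tested, 9 fell and 1 rose, with a median of −0.30. INSIG1 had 102, 102 and 106 CPM with MYB overexpression, against 246, 240.2 and 235 CPM with empty vector, a 2.33-fold difference (log2 fold change −1.22, SE 0.0459, adjusted p = 8.21e-13 by edgeR). STARD4, which carries cholesterol between membranes, had 29.4, 29.05 and 32.7 CPM with MYB overexpression, against 62.8, 61.5 and 66.3 CPM with empty vector. SREBF2, the SREBP gene that mainly drives cholesterol genes, fell by 0.33 on the log2 scale (adjusted p = 1.51e-04). INSIG1, STARD4 and SREBF2 were without overlap between the groups. The gene that rose was MBTPS2, a protease that releases SREBP from its membrane, with a log2 fold change of 0.29 (adjusted p = 0.00678). Of 8 tested genes of the LXR group, which responds to excess sterol, 3 fell and 0 rose, namely MYLIP (−0.30), PLTP (−0.39) and LPCAT3 (−0.27), the last losing its call without empty-vector replicate 1, MYB replicate 2 or MYB replicate 3. The exporter genes ABCA1 and ABCG1 had too few reads to test.

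Promoter sequences of pathway genes are printed because the sterol genes moved together. Those printed were picked among called sterol synthesis genes that hold the motif searched, so their numbers of matches do not describe the list. The windows run from 250 bases before to 50 after the gene start in RefSeq (GRCh38.p14), the motif searched was CCAAT on either strand, the box bound by NF-Y, and matches are in capitals. This motif was in 12 of the 16 sterol synthesis promoters with a window (75%), against 37.2% of 9831 protein-coding promoters searched. It was in 35.2% of promoters of all genes called lower and in 30.9% of those at least 2-fold lower. The list was chosen by pathway, so its share describes the list and not the change. The sterol element, sought as TCAC and CCAC with 1 base between them, was in 0 of the 16 and in 1.06% of all. At so low a share over all promoters, 0 of 16 cannot show that these promoters lack the element. Other spellings of it were not sought. A match is a description of the letters and says nothing of binding. The MSMO1 promoter (chr4:165327419-165327718, plus strand) has 4 matches, starting at −185, −139, −76 and −34 from the gene start, and the promoter of MVK, mevalonate kinase (chr12:109573544-109573843, plus strand), which fell by 0.56 on the log2 scale, has 5.
MSMO1: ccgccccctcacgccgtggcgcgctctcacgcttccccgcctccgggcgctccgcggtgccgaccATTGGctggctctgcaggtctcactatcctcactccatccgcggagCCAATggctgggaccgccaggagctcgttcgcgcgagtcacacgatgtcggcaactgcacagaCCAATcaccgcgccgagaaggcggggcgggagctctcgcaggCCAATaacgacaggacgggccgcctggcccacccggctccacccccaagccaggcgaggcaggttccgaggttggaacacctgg
MVK: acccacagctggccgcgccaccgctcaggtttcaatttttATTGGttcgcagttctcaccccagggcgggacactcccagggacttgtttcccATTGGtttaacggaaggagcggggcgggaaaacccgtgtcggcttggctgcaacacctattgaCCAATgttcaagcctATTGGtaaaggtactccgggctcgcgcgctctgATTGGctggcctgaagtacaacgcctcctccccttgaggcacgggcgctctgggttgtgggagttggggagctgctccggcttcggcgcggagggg

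Fatty acid genes, which SREBP1 drives in many cells, followed. Of 20 genes, all tested, 15 fell and 2 rose, with a median log2 fold change of −0.43. ACSS2, which makes acetyl-CoA from acetate, had 48.4, 49.4 and 51.4 CPM with MYB overexpression, against 99.9, 99.7 and 103 CPM with empty vector (log2 fold change −1.02, SE 0.0565, adjusted p = 2.05e-10). FADS1, a desaturase of long polyunsaturated chains, had 324, 323 and 327 CPM with MYB overexpression, against 621, 590.2 and 607 CPM with empty vector. FADS3, its relative, had 49.2, 51.2 and 44.4 CPM with MYB overexpression, against 91.5, 93.4 and 89.8 CPM with empty vector. FASN, which builds the palmitate chain, had 789, 815 and 724 CPM with MYB overexpression, against 1026, 1232 and 1179.5 CPM with empty vector, without overlap but with a wide spread among empty-vector libraries (log2 fold change −0.56, SE 0.115, adjusted p = 0.0107). ACACA, the rate-limiting carboxylase, fell by 0.17 on the log2 scale (adjusted p = 0.01297), a call lost without empty-vector replicate 1 or 3 or MYB replicate 2 or 3. SCD, which makes monounsaturated chains, had 558, 560.0 and 555 CPM with MYB overexpression, against 750.4, 734 and 744 CPM with empty vector. GPAM and MID1IP1 were the members that rose, by 0.38 and 0.27, and MID1IP1 kept its call only in the fit without empty-vector replicate 2 among the 6 that leave out a library.

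**Figure D3:**
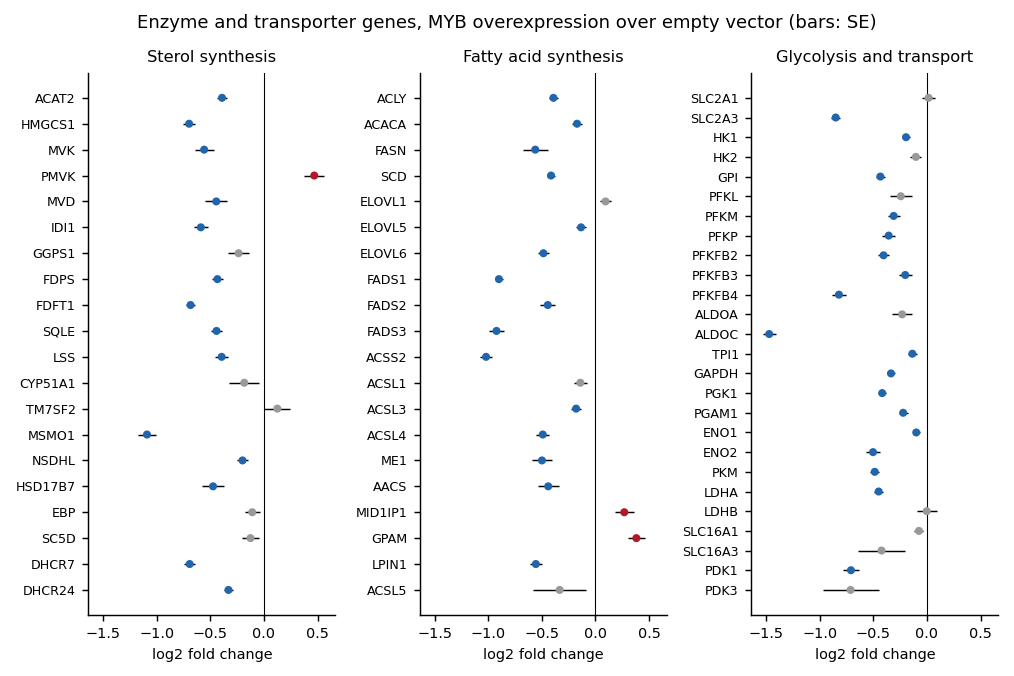
Log2 fold changes, MYB overexpression over empty vector, of tested genes of sterol synthesis (20 of the 21), fatty acid synthesis and glycolysis, with bars for the SE. Blue points passed the test as lower, red points as higher and grey points did not pass. Most points lie left of 0, with MSMO1, ACSS2 and ALDOC farthest from it in their panels.

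Most genes of glycolysis were lower. Of 26 genes of glycolysis and of glucose and lactate transport, all tested, 18 fell and 0 rose, with a median log2 fold change of −0.35. ALDOC, the aldolase form best known from brain, had 60.7, 56.7 and 54.3 CPM with MYB overexpression, against 167, 159 and 151 CPM with empty vector, a 2.77-fold difference (log2 fold change −1.47, SE 0.0614, adjusted p = 4.10e-12). SLC2A3, the glucose transporter GLUT3, had 192, 188 and 196 CPM with MYB overexpression, against 353, 337 and 348 CPM with empty vector, while SLC2A1, encoding GLUT1, was at 0.015 (adjusted p = 0.884). PFKFB4, which sets the level of the activator of phosphofructokinase, had 27.05, 26.9 and 28.1 CPM with MYB overexpression, against 51.8, 45.8 and 47.1 CPM with empty vector. PDK1, a kinase that inhibits pyruvate dehydrogenase, had 33.3, 30.8 and 34.5 CPM with MYB overexpression, against 58.5, 49.9 and 52.4 CPM with empty vector. ALDOC, SLC2A3, PFKFB4 and PDK1 fell without overlap. Of the phosphofructokinase genes, the committed step, PFKM fell by 0.31 and PFKP by 0.36 on the log2 scale, and PFKL stood at −0.24 (adjusted p = 0.121). The abundant genes of the lower pathway fell by smaller amounts than these 4, GAPDH by 0.34, PGK1 by 0.42, PKM by 0.49 and LDHA by 0.45. LDHA, which regenerates NAD+ by making lactate, had 1308, 1289 and 1319.5 CPM with MYB overexpression, against 1826, 1717 and 1808 CPM with empty vector. ENO1 and TPI1 fell by 0.10 and 0.14, and these 2 calls were lost in all 6 fits that leave out a library.

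Genes that respond to low oxygen through the transcription factor HIF1 fell as well. Of 28 tested genes of the HIF list, 17 fell and 1 rose, with a median of −0.25. This list and the glycolysis list cover responses known to overlap. BHLHE40, a repressor induced by hypoxia, had 64.5, 60.5 and 60.6 CPM with MYB overexpression, against 131, 130.5 and 132 CPM with empty vector (log2 fold change −1.08, SE 0.0515, adjusted p = 2.33e-11). VEGFA, the growth factor for vessels, had 126, 127 and 117 CPM with MYB overexpression, against 208, 203 and 205 CPM with empty vector. EGLN3, an oxygen-sensing hydroxylase, had 18.2, 18.5 and 18.8 CPM with MYB overexpression, against 30.8, 33.2 and 34.01 CPM with empty vector. DDIT4, an inhibitor of mTORC1, had 68.5, 69.97 and 65.7 CPM with MYB overexpression, against 102, 119 and 116 CPM with empty vector. Every MYB value was below every empty-vector value for these 4 genes. CA9, carbonic anhydrase 9, was at a low level, with deposited counts of 2, 0 and 4 with MYB overexpression and 32, 27 and 30 with empty vector, and it passed the test (adjusted p = 2.90e-06). VHL, which marks HIF for destruction, was the member that rose, with 103, 103 and 115 CPM with MYB overexpression, against 77.5, 88.6 and 82.4 CPM with empty vector (log2 fold change 0.37, adjusted p = 1.65e-04). HIF1A and EPAS1, the HIF subunits themselves, stood at 0.023 (adjusted p = 0.824) and 0.10 (adjusted p = 0.393).

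The core motif of HIF, ACGTG on either strand, was in 13 of 22 HIF-list promoters (59.1%), against 26.8% of all promoters searched, and it overlaps the E-box CACGTG. The list holds genes chosen because they are known HIF targets, so this share describes the list and not the change. The BHLHE40 promoter (chr3:4979187-4979486, plus strand) and that of DDIT4 (chr10:72273674-72273973, plus strand) are shown with matches in capitals. Both were picked among called members that hold the motif. The first match of BHLHE40 is a CACGTG in which both strands read ACGTG.
BHLHE40: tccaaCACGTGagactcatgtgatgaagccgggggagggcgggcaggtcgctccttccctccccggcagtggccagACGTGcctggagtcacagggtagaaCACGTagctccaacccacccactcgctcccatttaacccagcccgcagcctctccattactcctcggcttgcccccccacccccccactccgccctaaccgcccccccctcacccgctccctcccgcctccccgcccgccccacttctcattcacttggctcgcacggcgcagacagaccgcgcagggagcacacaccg
DDIT4: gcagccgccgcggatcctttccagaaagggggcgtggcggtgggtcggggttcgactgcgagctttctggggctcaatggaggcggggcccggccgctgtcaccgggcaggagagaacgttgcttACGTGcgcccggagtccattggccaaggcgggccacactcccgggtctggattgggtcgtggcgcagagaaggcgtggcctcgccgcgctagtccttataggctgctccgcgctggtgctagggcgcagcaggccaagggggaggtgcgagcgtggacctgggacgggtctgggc

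Replication-dependent histone genes, which are transcribed in S phase, were lower in these libraries. Of 25 tested, 15 fell and 0 rose, with a median log2 fold change of −0.41. The list's summed level was 1195 to 1229 CPM with MYB overexpression and 1611 to 1618 CPM with empty vector. H1-2, a linker histone, had 276, 272 and 284 CPM with MYB overexpression, against 410.5, 404 and 413 CPM with empty vector (log2 fold change −0.56, SE 0.0403, adjusted p = 9.21e-09). H2BC21 had 42.7, 40.2 and 39.2 CPM with MYB overexpression, against 63.2, 64.5 and 67.6 CPM with empty vector. H2BC4 had 23.6, 22.9 and 23.7 CPM with MYB overexpression, against 35.2, 31.6 and 34.6 CPM with empty vector. These 3 genes did not overlap between groups. Histone messages of this class mostly lack a poly(A) tail, so their reads depend on how RNA was selected, which the labels give only as a TruSeq RNA kit. Of 7 tested variant histones, made throughout the cycle, 2 rose, H3-3B by 0.22 and H2AX by 0.82, and H2AX lost its call without empty-vector replicate 3 or MYB replicate 2 or 3. Of 7 tested genes of histone message processing, 2 rose, ERI1 (0.24) and ZNF473 (0.16), the ZNF473 call being lost without empty-vector replicate 2 or 3 or MYB replicate 1 or 3.

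Other genes of the cell cycle were called in shares near that of all genes tested and changed by small amounts. Of 30 tested DNA replication genes, 2 rose and 4 fell, with a median of −0.025, and of 29 tested mitosis genes 0 rose and 7 fell, with a median of −0.067. The rising replication genes numbered 0 without empty-vector replicate 3 or MYB replicate 1 or 3 and 1 without empty-vector replicate 2. The mitosis falls were 24.1% of that list, against 12.7% called lower of all genes tested. They numbered 3 without empty-vector replicate 1 and 3 without MYB replicate 2. BUB1, a kinase of the spindle checkpoint, had 196, 189.5 and 206 CPM with MYB overexpression, against 262, 249 and 247 CPM with empty vector. TOP2A, the topoisomerase of dividing cells, had 504, 483 and 539 CPM with MYB overexpression, against 635, 585 and 608 CPM with empty vector. LIG1, the ligase that joins Okazaki fragments, fell by 0.29 on the log2 scale. Of 24 tested nucleotide synthesis genes 3 rose and 2 fell, shares that add to 20.8%, near the 22.3% of all genes tested. Their falls numbered 1 without MYB replicate 3 and 0 without any other single library, and their rises 1 without MYB replicate 1. CDKN1A, the cell cycle inhibitor p21, fell, with 12.04, 11.9 and 10.2 CPM with MYB overexpression, against 14.7, 15.7 and 13.8 CPM with empty vector.

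Most keratin genes also fell. Of 7 tested keratin genes 6 fell and 0 rose. KRT8 had 482, 478 and 442 CPM with MYB overexpression, against 775, 807 and 801 CPM with empty vector (log2 fold change −0.77, SE 0.0515, adjusted p = 3.95e-09). Its partner KRT18 had 249, 236 and 226 CPM with MYB overexpression, against 310.3, 324 and 317 CPM with empty vector. KRT19 had 108, 113 and 102 CPM with MYB overexpression, against 136, 149 and 144 CPM with empty vector. Keratin 8 and 18 form the filaments of simple epithelia and are known from K562 as well, while the epithelial gene CDH1 had at most 3 counts in any of the 6 libraries and KRT5 and KRT14 had 0. The summed level of the epithelial marker list followed its keratins, at 824 to 894 CPM with MYB overexpression and 1284 to 1341 CPM with empty vector. In bulk RNA, fewer cells of a type and less RNA per cell cannot be told apart. Of 17 tested targets of serum response factor and YAP, 8 fell and 1 rose. ACTG1, cytoplasmic actin, had 917, 847 and 827 CPM with MYB overexpression, against 1319.7, 1384 and 1326 CPM with empty vector. TPM4, a tropomyosin, had 79.2, 75.8 and 79.4 CPM with MYB overexpression, against 127, 121 and 119 CPM with empty vector. The member that rose was THBS1, a secreted matrix glycoprotein, with 7.61, 7.12 and 8.26 CPM with MYB overexpression, against 2.05, 2.92 and 2.99 CPM with empty vector (log2 fold change 1.54, adjusted p = 2.75e-07).

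Genes reported as MYB targets in blood cells moved both ways. Of 22 tested, 5 rose and 4 fell, and their median log2 fold change was 0.058. Those that rose were NMU, HSPA8, BMI1, CEBPB and KLF1, and those that fell were LMO2, ANPEP, MAT2A and MYADM. HSPA8, a constitutive chaperone, had 4482, 4414 and 4299 CPM with MYB overexpression, against 3801, 3656 and 3798 CPM with empty vector. BMI1, a Polycomb protein of stem cells, had 78.99, 74.4 and 85.3 CPM with MYB overexpression, against 63.7, 62.6 and 62.2 CPM with empty vector. LMO2, a scaffold of haematopoietic transcription complexes, had 67.9, 66.5 and 65.4 CPM with MYB overexpression, against 94.8, 88.7 and 91.9 CPM with empty vector. CEBPB, a myeloid transcription factor, had 6.59, 6.04 and 6.59 CPM with MYB overexpression, against 3.95, 3.84 and 5.59 CPM with empty vector, a call lost without MYB replicate 1 or 3 or empty-vector replicate 1 or 2. Without empty-vector replicate 1, MYB replicate 1 or MYB replicate 3 the count that rose was 3, and the count that fell was 1 without empty-vector replicate 3 and 2 without each other library except MYB replicate 1. Of 20 tested MYB partners and regulators 4 rose and 3 fell, and the 3 falls were lost in all 6 fits that leave out a library. CREBBP, the coactivator, rose by 0.27, HIPK2, a kinase that phosphorylates MYB, by 0.30, and WDR5, a subunit of histone methyltransferase complexes, by 0.18 on the log2 scale. SKI, a corepressor, rose by 0.24, although its groups overlapped and its call was lost without empty-vector replicate 1 or 3 or MYB replicate 2 or 3. EP300 stood at 0.073 (adjusted p = 0.345).

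The MYB motif was sought on either strand in the form CAACGG and the related form TAACGG. Sites of the form CAACTG were counted too, as were those of the form TAACTG. It was in 25.7% of promoters of genes called higher, in 22.3% of those called lower and in 24.4% of those not called, against 24.2% of all 9831 protein-coding promoters searched. Among genes changed at least 2-fold the order was the opposite, with the motif in 11 of 63 promoters of higher genes (17.5%) and in 29 of 110 of lower genes (26.4%). These shares were not tested, and a window of 300 bases leaves out enhancers. The promoters of NMU (chr4:55636744-55637043, minus strand) and CD52 (chr1:26317708-26318007, plus strand) are shown because these genes of opposite direction both hold the motif, in capitals, 3 times in NMU and once in CD52.
NMU: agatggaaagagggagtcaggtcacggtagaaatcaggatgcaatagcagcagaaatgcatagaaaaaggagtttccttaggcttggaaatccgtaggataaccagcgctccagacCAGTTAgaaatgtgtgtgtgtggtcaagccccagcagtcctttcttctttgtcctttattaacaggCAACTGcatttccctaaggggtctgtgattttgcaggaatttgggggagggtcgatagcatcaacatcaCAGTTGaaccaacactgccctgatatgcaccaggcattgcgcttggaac
CD52: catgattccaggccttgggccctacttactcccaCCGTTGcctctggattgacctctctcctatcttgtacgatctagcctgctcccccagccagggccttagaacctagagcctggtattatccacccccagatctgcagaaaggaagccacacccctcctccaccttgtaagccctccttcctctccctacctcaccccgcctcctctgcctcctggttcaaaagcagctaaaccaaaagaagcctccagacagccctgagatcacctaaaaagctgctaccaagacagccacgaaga

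Erythroid and megakaryocytic genes are the lineage programmes that K562 cells can express. Of 15 tested erythroid markers 1 rose and 5 fell, and the globin genes HBG1 (0.028, adjusted p = 0.692) and HBA2 (−0.15, adjusted p = 0.8001) did not pass. HBG1, fetal gamma globin, had 219, 226 and 215 CPM with MYB overexpression, against 221, 211 and 215 CPM with empty vector. GATA1, the master regulator of both lineages, had 207, 214 and 207 CPM with MYB overexpression, against 248, 262 and 256 CPM with empty vector and fell by 0.29 on the log2 scale (adjusted p = 8.00e-05). KLF1, which drives adult red cell genes, rose by 0.26 (adjusted p = 0.0454), a call kept without empty-vector replicate 2 and lost without any other single library. Of 6 tested megakaryocytic markers 4 fell and 0 rose, with summed levels of 246 to 258 CPM with MYB overexpression and 329 to 334 CPM with empty vector. GP6, the platelet collagen receptor, had 16.3, 16.3 and 16.1 CPM with MYB overexpression, against 30.4, 31.6 and 34.6 CPM with empty vector. ITGA2B, a subunit of the platelet fibrinogen receptor, had 19.2, 21.1 and 19.5 CPM with MYB overexpression, against 25.02, 25.5 and 25.8 CPM with empty vector. NFE2, a factor of platelet formation, had 205, 204 and 196 CPM with MYB overexpression, against 256, 259 and 249.9 CPM with empty vector. Groups were apart for each of these 3 genes. Of 20 tested iron and haem genes 1 rose and 7 fell, and the fallen count was 4 without empty-vector replicate 1 or MYB replicate 2. TFRC, the transferrin receptor, had 974, 937 and 994 CPM with MYB overexpression, against 1224, 1176 and 1208 CPM with empty vector. CPOX, an enzyme of haem synthesis, had 50.5, 49.9 and 52.5 CPM with MYB overexpression, against 70.01, 67.5 and 67.8 CPM with empty vector. The gene that rose, FTH1, ferritin heavy chain, has many processed copies in the genome. It had 67.8, 143 and 139 CPM with MYB overexpression, against 21.97, 38.7 and 34.5 CPM with empty vector, and its call (adjusted p = 0.0376) held without MYB replicate 1 and was lost without any other single library.

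Among markers of other blood cells, CD3D, a T cell receptor component, had 13.4, 11.9 and 14.4 CPM with MYB overexpression, against 31.3, 30.8 and 31.8 CPM with empty vector and fell by 1.24 on the log2 scale, while the T cell gene CD3E had at most 5 counts in any of the 6 libraries. PECAM1, shared by platelets and endothelium, had 8.66, 8.11 and 9.33 CPM with MYB overexpression, against 17.3, 17.5 and 15.1 CPM with empty vector, and the endothelial gene CDH5 had 0 counts in the 6 libraries. SPI1, a myeloid and B cell factor, fell by 0.39, and LYZ, lysozyme, rose by 0.46. Of 37 tested genes with CD names 5 rose and 8 fell, the falls numbering 4 without empty-vector replicate 1 and 5 without empty-vector replicate 3, MYB replicate 1 or MYB replicate 3. CD69, an early activation antigen, had 26.6, 27.4 and 27.1 CPM with MYB overexpression, against 60.6, 53.5 and 59.4 CPM with empty vector. CD320, a receptor for vitamin B12 uptake, rose, with 55.1, 61.2 and 59.4 CPM with MYB overexpression, against 33.3, 43.9 and 36.8 CPM with empty vector.

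Immediate early genes, feedback genes of signalling and receptors were called in both directions. Of 20 tested immediate early genes, transcribed within minutes of a stimulus, 8 fell and 3 rose, or 1 that rose without empty-vector replicate 1 or MYB replicate 3. EGR1 had 285, 309.9 and 283 CPM with MYB overexpression, against 465, 462 and 462 CPM with empty vector (log2 fold change −0.66, SE 0.0436, adjusted p = 2.42e-09). FOS had 13.7, 13.7 and 13.6 CPM with MYB overexpression, against 28.5, 30.01 and 30.1 CPM with empty vector, a 2.16-fold difference. NR4A1 and BTG2 fell by 0.82 and 0.79, while JUN, the partner of FOS, rose by 0.30. Of 18 tested feedback genes of cytokine and MAP kinase signalling 4 fell and 1 rose, or 2 that rose without MYB replicate 3. Their share called was 27.8%, beside the 22.3% of all genes tested, and their median log2 fold change was 0.023. SOCS3, a brake on JAK and STAT signalling, had 7.16, 7.403 and 7.45 CPM with MYB overexpression, against 12.2, 12.1 and 11.5 CPM with empty vector. SPRY4, a brake on receptor signalling, had 45.6, 42.4 and 42.1 CPM with MYB overexpression, against 60.95, 62.6 and 65.1 CPM with empty vector. PIM2, a survival kinase, was the member that rose (0.26). Of 36 tested cytokine and growth factor receptors 8 fell and 1 rose (2 without empty-vector replicate 2), a share called of 25% beside the 22.3% of all genes tested. IL9R, the interleukin 9 receptor, had 1.22, 1.23 and 0.7602 CPM with MYB overexpression, against 4.95, 5.098 and 6.67 CPM with empty vector. ERBB3, a receptor for neuregulins, had 5.25, 6.88 and 5.83 CPM with MYB overexpression, against 11.1, 9.34 and 10.4 CPM with empty vector. TNFRSF1B, a receptor for tumour necrosis factor, had 79.03, 78.7 and 72.3 CPM with MYB overexpression, against 99.5, 119 and 111 CPM with empty vector.

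Phosphoinositide signalling held PLCD1 among its members. Of 21 tested genes of this list 10 fell and 1 rose, with a median of −0.18. PLCB2, a phospholipase coupled to G proteins in blood cells, had 8.704, 9.29 and 8.21 CPM with MYB overexpression, against 15.6, 15.6 and 16.4 CPM with empty vector. INPP5D, the lipid phosphatase SHIP1, had 11.7, 12.8 and 12.4 CPM with MYB overexpression, against 18.97, 21.3 and 22.1 CPM with empty vector. Of 7 tested serpins, protease inhibitors, 4 fell and 1 rose. SERPINB1, which blocks neutrophil proteases, had 41.98, 43.6 and 42.9 CPM with MYB overexpression, against 59.8, 57.4 and 58.8 CPM with empty vector. SERPINH1, the collagen chaperone, was the member that rose (0.27). Calcium-binding proteins were divided, with 4 of 19 tested higher and 4 lower. S100A4, a regulator of cell motility, had 2.4, 2.31 and 2.18 CPM with MYB overexpression, against 7.11, 6.36 and 6.27 CPM with empty vector, opposite to CALB1. Of 20 tested semaphorin, plexin and ephrin genes 7 fell and 0 rose, among them SEMA4B (−0.65) and SEMA6B (−1.20) besides EPHB6. Of 18 tested integrin genes 4 fell and 0 rose, a share called of 22.2% beside the 22.3% of all genes tested. The median log2 fold change of the integrins was −0.020. ITGA5, a subunit of the fibronectin receptor, had 140.1, 144 and 131 CPM with MYB overexpression, against 205, 193 and 196 CPM with empty vector.

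Members of the mitochondrial ribosome, the proteasome and the RNA polymerases were among the genes that rose, most by small amounts. Of 77 tested mitochondrial ribosomal protein genes 27 rose and 0 fell, against 9.62% called higher of all genes tested, with a median log2 fold change of 0.12, and 15 rose without MYB replicate 3. Their summed level was 5645 to 5769.8 CPM with MYB overexpression and 5148 to 5337 CPM with empty vector. MRPL11 had 83.6, 83.7 and 82.3 CPM with MYB overexpression, against 54.2, 64.95 and 68.9 CPM with empty vector. MRPS26, of the small subunit, had 26.7, 31.7 and 29.6 CPM with MYB overexpression, against 13.9, 19.9 and 22.1 CPM with empty vector. Of 37 tested proteasome subunits 13 rose and 0 fell, with a median of 0.089. PSMA7, a subunit of the catalytic core, had 252, 258 and 261 CPM with MYB overexpression, against 172, 215 and 209 CPM with empty vector. PSMC1, an ATPase of the regulatory particle, had 89.8, 88.8 and 97.9 CPM with MYB overexpression, against 80.8, 75.8 and 77.1 CPM with empty vector. PSMA7 lost its call without MYB replicate 3, and MRPS26 without MYB replicate 2 or 3. Of 32 tested RNA polymerase subunits 11 rose and 1 fell, and 7 rose without empty-vector replicate 2 or MYB replicate 1. POLR2J, a subunit of RNA polymerase II, had 90.9, 81.5 and 94.02 CPM with MYB overexpression, against 68.3, 71.4 and 70.3 CPM with empty vector. POLR3C, of RNA polymerase III, had 67.6, 65.97 and 64.3 CPM with MYB overexpression, against 52.04, 53.7 and 55.99 CPM with empty vector. The groups did not overlap for any of these 6 genes.

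Some chaperone genes rose as well. Of 20 tested cytosolic and mitochondrial chaperones 7 rose and 0 fell, or 4 without MYB replicate 3. HSPH1, a co-chaperone of HSP70, had 316, 304 and 318 CPM with MYB overexpression, against 247, 259.6 and 259 CPM with empty vector. Of 18 tested chaperones of the endoplasmic reticulum 6 rose and 0 fell. MANF, a secreted stress protein of this compartment, had 26.8, 25.2 and 26.5 CPM with MYB overexpression, against 19.9, 21.1 and 21.6 CPM with empty vector. SEL1L, an adaptor of protein disposal there, had 54.5, 53.1 and 55.04 CPM with MYB overexpression, against 44.2, 44.4 and 45.7 CPM with empty vector. SDF2L1 changed most of them, with 129, 156 and 154 CPM with MYB overexpression, against 55.05, 84.9 and 76.6 CPM with empty vector, and its call (adjusted p = 0.0176) was lost without MYB replicate 2 or 3. Of 46 tested complex I genes 8 rose and 0 fell, or 4 without MYB replicate 1 or 3. Genes of the mitochondrial genome were called in both directions, with 9 of 30 tested lower and 3 higher, the rises numbering 1 without empty-vector replicate 3 and 0 without empty-vector replicate 2, MYB replicate 1 or MYB replicate 3. MT-CO2, a subunit of cytochrome oxidase, had 6643, 6656 and 5946 CPM with MYB overexpression, against 8970.1, 8033 and 8477 CPM with empty vector, and MT-RNR2, the large ribosomal RNA, fell by 0.32 on the log2 scale. Their summed level was 58345 to 61456 CPM with MYB overexpression and 67027 to 72650.0 CPM with empty vector.

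Members of the cytosolic translation machinery were called in both directions. The share called was 30.8% of cytosolic ribosomal protein genes, 29.03% of initiation factor genes and 30.4% of snoRNA host genes. For aminoacyl-tRNA synthetases it was 23.5%, near the 22.3% of all genes tested. Of all genes tested 9.62% were called higher and 12.7% lower, and the shares were not compared by a test. Of 78 tested cytosolic ribosomal protein genes 15 rose and 9 fell, and the counts were 22 and 3 when libraries were scaled by total count alone. Leaving out single libraries gave 7 that rose without MYB replicate 3 and 2 to 5 that fell, lowest without empty-vector replicate 1 or 3. RPL3 had 2033, 1989 and 1978 CPM with MYB overexpression, against 2512, 2497 and 2485 CPM with empty vector. RPL13 had 598, 729 and 679 CPM with MYB overexpression, against 330.1, 434 and 416 CPM with empty vector, so these abundant members moved in opposite directions, and RPL13 lost its call without MYB replicate 3. Of 62 tested initiation factor genes 12 rose and 6 fell, of 34 tested aminoacyl-tRNA synthetases 2 rose and 6 fell (5 and 3 under scaling by total count, and 0 and 2 without empty-vector replicate 1), and of 23 tested snoRNA host genes 6 rose and 1 fell. Of 19 tested genes of the amino acid stress response 5 rose and 2 fell, or 3 that rose without MYB replicate 1 and 1 that fell without empty-vector replicate 1 or 3 or MYB replicate 1 or 3. SLC3A2, the heavy chain of amino acid exchangers, had 298, 292 and 289 CPM with MYB overexpression, against 199, 221 and 228 CPM with empty vector. SLC38A2, a sodium-coupled amino acid transporter, fell, with 322, 303 and 347 CPM with MYB overexpression, against 462, 420.2 and 453 CPM with empty vector. Of 15 tested genes of serine and one-carbon metabolism 6 fell and 0 rose, or 3 that fell without empty-vector replicate 1 and 2 that rose without MYB replicate 2. SHMT2, which feeds one-carbon units in mitochondria, fell by 0.22. Of 18 tested glutathione and thioredoxin genes 2 rose (1 without MYB replicate 3) and 5 fell (3 without empty-vector replicate 3). Of 28 tested lysosome and autophagy genes 9 rose (5 without MYB replicate 1) and 4 fell (2 without MYB replicate 3). CTSD, the lysosomal protease cathepsin D, had 27.5, 30.8 and 23.4 CPM with MYB overexpression, against 17.7, 22.9 and 19.7 CPM with empty vector.

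Interferon and antigen presentation genes moved both ways, and the largest rises were at low levels. Of 22 tested interferon-stimulated genes 5 rose and 3 fell, and 3 rose without empty-vector replicate 3, MYB replicate 1 or MYB replicate 3. IFIH1, the RNA sensor MDA5, had deposited counts of 24, 20 and 17 with MYB overexpression and 2, 5 and 6 with empty vector (log2 fold change 1.95, SE 0.377, adjusted p = 9.46e-04). OAS3, an enzyme that senses double-stranded RNA, had 4.76, 3.06 and 5.47 CPM with MYB overexpression, against 1.95, 1.32 and 1.58 CPM with empty vector. EIF2AK2, the kinase PKR, had 57.03, 58.05 and 63.9 CPM with MYB overexpression, against 49.8, 45.9 and 50.96 CPM with empty vector. IFITM1, which blocks viral entry, fell, with 265, 255 and 254 CPM with MYB overexpression, against 365, 363 and 355 CPM with empty vector. Of 11 tested antigen presentation genes 3 rose and 1 fell. PSMB9, a catalytic subunit of the immunoproteasome, had 1.59, 1.23 and 1.47 CPM with MYB overexpression, against 0.4504, 0.229 and 0.283 CPM with empty vector. PSMB8, another such subunit, had 1.55, 1.08 and 1.17 CPM with MYB overexpression, against 0.4504, 0.344 and 0.1695 CPM with empty vector. TAP1, which carries peptides into the endoplasmic reticulum, had 7.403, 6.601 and 7.55 CPM with MYB overexpression, against 4.45, 3.38 and 3.11 CPM with empty vector. HLA-B and HLA-F had too few reads to test, and HLA-E fell by 0.27. PSMB8 and PSMB9 also count among the 13 proteasome genes that rose.

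**Figure D4:**
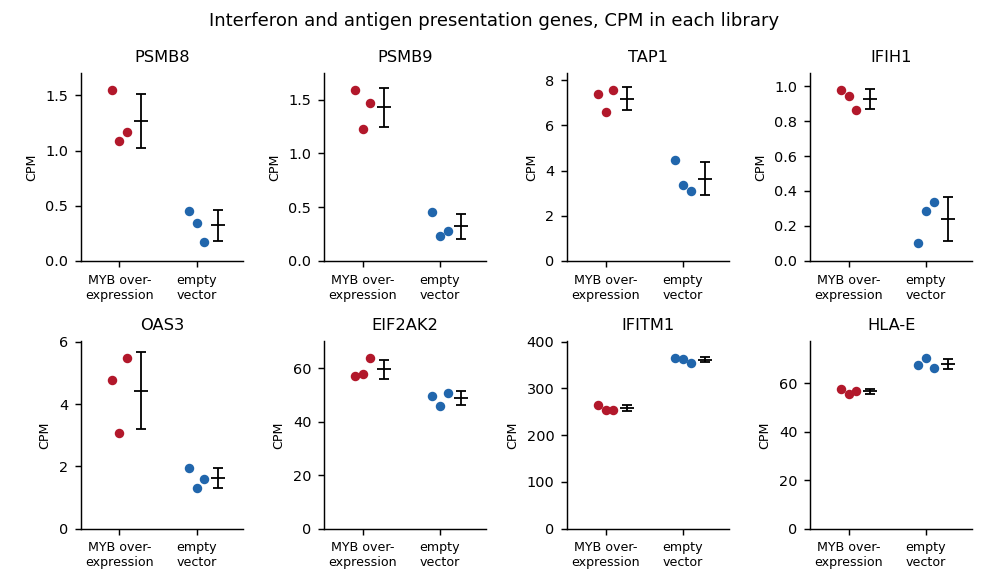
TMM-scaled CPM of 8 interferon and antigen presentation genes in each library, with MYB overexpression (red) left of empty vector (blue), means and SD (n = 3). PSMB8, PSMB9, IFIH1 and OAS3 lie below 6 CPM in every library and are higher with MYB overexpression, while IFITM1 and HLA-E are lower.

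Chromatin genes and large families gave shares near the background or moved both ways. Of 25 tested Polycomb and DNA methylation genes 3 rose and 5 fell, or 5 that rose without empty-vector replicate 2 and 6 that rose under scaling by total count. TET1, which oxidises methylated cytosine, had 54.3, 49.7 and 53.1 CPM with MYB overexpression, against 74.3, 72.3 and 72.6 CPM with empty vector, and DNMT3A and DNMT3B, which set methylation, fell by 0.55 and 0.31. Of 10 tested imprinted genes 1 rose and 3 fell. H19, an imprinted noncoding RNA, had 1.22, 1.08 and 1.01 CPM with MYB overexpression, against 5.75, 6.3 and 6.95 CPM with empty vector (log2 fold change −2.50, SE 0.164, adjusted p = 2.39e-09). DLK1 had 19.6, 20.4 and 19.3 CPM with MYB overexpression, against 29.5, 34.4 and 33.96 CPM with empty vector. Of 235 tested solute carriers 22 rose and 33 fell, a balance that turned under scaling by total count, with 36 and 28. The rises numbered 11 without empty-vector replicate 3, 13 without MYB replicate 1 and 12 without MYB replicate 3. SLC6A6, the taurine transporter, had 278, 287 and 254 CPM with MYB overexpression, against 488, 469.6 and 477 CPM with empty vector. Of 434 tested ZNF genes 49 rose and 22 fell, or 32 that rose without MYB replicate 3, and 10 to 14 that fell without any 1 library other than empty-vector replicate 2, lowest without empty-vector replicate 1. Of 30 tested kinesins 1 rose and 7 fell, and of 16 tubulins 1 rose and 4 fell. Of 24 tested ABC transporters 2 rose and 7 fell, with 0 rises and 4 falls without MYB replicate 1. Their rises numbered 1 without MYB replicate 2 or any single empty-vector replicate. Of 49 RAB genes 6 rose and 7 fell, with 3 rises without MYB replicate 3 and 4 falls without MYB replicate 2. Of 25 collagens and laminins 1 rose and 4 fell, with 2 falls without empty-vector replicate 2 or 3 or MYB replicate 1 or 3. Of 13 tumour necrosis factor ligands and receptors 2 rose and 4 fell, with 1 rise without empty-vector replicate 1 or 2 or MYB replicate 1. KIF21B, a kinesin, fell by 0.84 on the log2 scale and ABCA2, a lipid transporter, by 0.86. Of 259 tested LINC genes 16 rose and 36 fell. Of 8 tested protocadherins 0 were called in either direction by edgeR, and 1 was at an unadjusted p under 0.05.

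The libraries labelled NMYB overexpression gave a further comparison for the MYB libraries. Against them 181 of 15823 genes (1.14%) passed the test, 99 higher (0.626%) and 82 lower (0.518%) with MYB overexpression. This count rests on single libraries, being 0 without MYB replicate 1 (with 2136 genes at an unadjusted p under 0.05 by edgeR), 24 without MYB replicate 3, 43 without NMYB replicate 1 and 323 without NMYB replicate 3. The MYB libraries serve in both comparisons, so their values are given side by side and not as independent evidence. PLCD1 averaged 36.02 ± 1.002 CPM with MYB overexpression, 47.3 ± 4.03 CPM with NMYB overexpression and 120.1 ± 2.2 CPM with empty vector (n = 3 each), and its log2 fold change of MYB over NMYB was −0.39 (adjusted p = 0.00888). ALDOC averaged 57.2 ± 3.21 CPM with MYB, 75.8 ± 5.77 CPM with NMYB and 159 ± 7.8 CPM with empty vector, with −0.40 between MYB and NMYB (adjusted p = 0.00888). ACRBP stood at −0.54 (adjusted p = 0.0296) and NT5DC4 at −0.55 (adjusted p = 0.0487) against NMYB. EGR1 averaged 293 ± 15.1 CPM with MYB, 361 ± 11.8 CPM with NMYB and 463 ± 1.78 CPM with empty vector, and CD69 averaged 27.03 ± 0.378 CPM with MYB, 35.7 ± 1.23 CPM with NMYB and 57.8 ± 3.82 CPM with empty vector. NMYB means lay between the others for PLCD1, ALDOC, EGR1 and CD69, which were picked among genes that passed between MYB and NMYB. They lay beyond the MYB means for ZNF428 (24.6 CPM with NMYB, 18.7 with MYB, 5.94 with empty vector) and HSPB1 (361, 265 and 167 CPM). The 14 largest rises and 14 largest falls at 10 CPM or more also passed edgeR's test between NMYB and empty vector. Their directions were the same. Both comparisons share the empty-vector libraries and are not independent. UTP20 was higher with MYB than with NMYB by 0.28, while TRIR (−0.35) and NOL7 (−0.31) were lower with MYB than with NMYB. Of the 21 sterol synthesis genes 0 passed the edgeR test between MYB and NMYB, with 9 at an unadjusted p under 0.05, and INSIG1 stood at −0.18 (adjusted p = 0.05595). Of 78 cytosolic ribosomal protein genes 10 were lower with MYB than with NMYB and 0 higher by edgeR, with 2 higher at an unadjusted p under 0.05. A p above the threshold does not show that the isoforms act alike.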

How the data were processed

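Total RNA (1 µg, TRIzol) of K562 cells was made into TruSeq libraries, per the labels' protocols. The authors deposited whole-number counts per gene, made with Trimmomatic 0.93, HISAT2 2.2.1 on GRCh38 and featureCounts 2.0.1, per the submitters' processing notes. Annotation release, strand setting and handling of multi-mapping reads are not given in the sources used here, and they decide the values of gene copies and antisense genes. The counts were fitted in edgeR 4.0.16 (R 4.3.3) over all 9 libraries of the table, with TMM scaling, filterByExpr (minimum 10 counts) and the quasi-likelihood F test with robust estimation. The SE is the log2 fold change divided by the root of F. Alternatives used DESeq2 1.42.0 and limma 3.58.1 (voom), other scalings and filters, a GC term and each library left out. The code was tested on simulated data. Gene positions, GC content and length came from GENCODE 29 by identifier, and promoter windows from RefSeq, matched by symbol (9831 genes). Replicate numbers were not taken as pairs, and whether the samples were paired is not known. The members of the 33 gene lists and 24 families, and the tests, were chosen with earlier results of these data known. Named were the 14 largest changes in each direction at 10 CPM or more and the 6 largest at 100 CPM or more, each kept on leaving out any library and without overlap, with up to 4 list members of 5 CPM or more that changed most. Rate-limiting enzymes, lone members moving against their list and other examples were added after their values were seen. Results for some genes are not reported here.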

Additional observations from a re-analysis of the deposited data

How the results depend on the processing

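The total count of genes called between MYB overexpression and empty vector was between 2870 and 5159 under the 10 settings that leave out no MYB or empty-vector library, within 1.5 times of 3529. The count of genes called higher was 2450 with the GC trend removed and 2500 with the replicate block and the GC trend removed, against 1522, while the lower count moved by less than 1.5 times in every setting. Leaving out 1 library gave 2491 to 2889 genes in all, 1017 to 1337 higher and 1387 to 1583 lower. The MYB transcript stayed at a positive log2 fold change of 0.0646 to 0.1001 without 1 library, and its adjusted p was 0.0629 to 0.6007 over all alternatives. Between MYB and NMYB, 181 genes became 656 without a low-count filter, 60 with only the 6 libraries compared, 399 with DESeq2, 1184 with the replicate block, 765 with the GC trend removed and 870 with the replicate block and the GC trend removed, and 0 to 323 without 1 library. MYBL1 was at −0.0914 to 0.2801 without 1 library, the negative value (adjusted p = 0.860) being that without MYB replicate 2. The cause of these moves was not tested.

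Same-numbered MYB and empty-vector libraries correlated by 0.00163 to 0.0538 in 3 pairs, under the threshold of 0.1. The numbers were thus not taken as pairs. For MYB and NMYB libraries the values were −0.0232 to 0.0994, and for NMYB and empty-vector libraries −0.0204 to 0.0906. Values under the threshold do not show that the samples were unpaired. With the replicate block, 4342 genes were called against empty vector (1981 higher and 2361 lower), and of the 3 MYB libraries 2 correlated best with their own number. Depth limits genes below 1 CPM, of which 3.62% were called higher and 3.75% lower.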

Other observations

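Cancer-testis genes of the X chromosome, looked at after VCX3A, SSX3 and CTAG2 had been seen among the largest rises, were chosen with values known and have no test as a group. Of 39 tested, 15 rose and 1 fell, with a median log2 fold change of 0.22, against 9.62% called higher of all genes tested. MAGEA1 had 23.6, 22.96 and 24.5 CPM with MYB overexpression, against 16.8, 16.4 and 14.3 CPM with empty vector. SSX1 had 135, 137 and 130.4 CPM with MYB overexpression, against 115, 113 and 120.2 CPM with empty vector. MAGEA3 and MAGEB2 stood at −0.043 (adjusted p = 0.544) and −0.0053 (adjusted p = 0.959), so not all abundant members moved. The gene that fell was MAGEB17, with 1.22, 0.802 and 1.17 CPM with MYB overexpression, against 4.35, 4.18 and 4.07 CPM with empty vector. GAGE2A had 209, 199 and 24.2 CPM with MYB overexpression, against 186, 166 and 185 CPM with empty vector, so MYB replicate 3 stood far below the other 5 libraries. These families hold near-identical copies, and how reads were shared among them was not tested.

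Several genes of signalling and vessel growth changed by large factors at levels below 10 CPM, named after their values were seen. PDGFB, a growth factor for stromal cells, had deposited counts of 7, 14 and 7 with MYB overexpression and 93, 86 and 73 with empty vector (log2 fold change −3.40, SE 0.2497, adjusted p = 1.24e-08 by edgeR). FLT1, a receptor for VEGFA, had 16, 14 and 9 counts with MYB overexpression and 56, 51 and 67 with empty vector. PDE2A, a phosphodiesterase, had 7, 8 and 5 counts with MYB overexpression and 41, 42 and 41 with empty vector. HDC, which makes histamine, went the other way, with 80, 49 and 59 counts with MYB overexpression and 15, 11 and 14 with empty vector (log2 fold change 1.97, SE 0.229). ETS1, a transcription factor of lymphoid and endothelial cells, had 42, 22 and 26 counts with MYB overexpression and 6, 8 and 6 with empty vector. RUNX2, a factor of bone formation, had 1.14, 0.896 and 0.7096 CPM with MYB overexpression, against 2.802, 3.21 and 3.39 CPM with empty vector, and it fell by 1.74 on the log2 scale.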
